A study of Rattus norvegicus with 20 samples.

Results

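The genes described here encode proteins of the lysosome, the acidic organelle in which cells break down proteins, sugar chains, sulfated polymers and lipids. A list of 32 symbols was looked up in the deposited expression table of rat milk fat RNA, and a gene was kept if its value lay above the table's lowest value in at least 1 library. Of these 32 genes, 31 were kept out of 14022 genes that met the same criterion, and Sgsh was not analysed here. They comprise 8 cathepsins, 2 further proteases, 9 glycosidases, 2 sulfatases, 3 genes of lipid breakdown, 5 membrane proteins, progranulin (Grn) and the transcription factor TFEB (Tfeb).

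Wild Type Sprague-Dawley dams received lipopolysaccharide (LPS), a bacterial cell wall component that activates Toll-like receptor 4. Controls were given saline free of pyrogens. Both injections fell on postnatal day 10 (P10). Milk was let down with oxytocin 2 h later, or 24 h later on postnatal day 11 (P11), and RNA was isolated from the fat layer. The groups were saline P10, LPS P10, saline P11 and LPS P11, with 5 libraries in each, taken from 14 animals, 7 per treatment, and 3 dams of each treatment gave milk on both days. Every animal received isoflurane and oxytocin, so that all 4 groups share these. Time after injection, day of lactation and, for the dams milked on both days, an earlier milking cannot be told apart in the comparison of P11 with P10. The value columns name no dam, so the libraries were treated as independent.

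Milk fat globules leave the mammary secretory cell wrapped in its plasma membrane and carry some of its cytoplasm, so RNA of the fat layer is held to come largely from luminal epithelium. In this epithelium lysosomes are known for their part in the involution that follows weaning, when cathepsins B, D and L leak or act in dying secretory cells and milk fat is taken back up. Lysosomal genes are partly under shared control. TFEB and its relatives bind an E-box element that recurs in promoters of lysosomal genes, and mTORC1 on the lysosomal surface keeps TFEB out of the nucleus while nutrients are plentiful. Glycosidases, most cathepsins and other soluble hydrolases reach the lysosome through mannose-6-phosphate receptors, while the membrane proteins follow sorting signals in their own tails.

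Values per library are normalised counts, obtained by inverting the authors' transformation, and differences are on the deposited log2 scale with the model's standard error (SE). A call is a limma p below 0.05 after Benjamini-Hochberg adjustment over all 14022 genes. From the step of a single read in low values, depth was estimated at 22200000 to 93100000 reads per library, with a median of 46300000. The lowest value of any of the 31 genes, 78.5 for Cd63 in LPS P10 library 4, stood on about 50 reads, so that counting error was small beside the spread between libraries. Levels are not compared between genes, because transcript lengths were not used here. Of the luminal markers, Csn2 (β-casein) was at 1679312 or more in every library, and Krt8 and Epcam were at 6401 or more and at 6049 or more.

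Saline P11 library 2 went against its label. For 26 of the 31 genes it lay nearer the mean of saline P10 than that of the other 4 saline P11 libraries. Where values are given per library its value is named apart, and values marked as without it come from a fit that leaves it out. Group means ± SD of genes outside the 31 include it. A second property of the whole series bears on every direction between days. The 5 milk protein genes Csn1s1, Csn2, Csn3, Lalba and Wap held 56.0% ± 7.03 (SD, n = 5) of the counts of a saline P10 library and 58.7% ± 4.99 in LPS P10, but 28.5% ± 14.5 in saline P11 (22.2% ± 4.39 without library 2, n = 4) and 24.3% ± 4.51 in LPS P11. The 31 lysosomal genes together held 2328 ± 420 (SD, n = 5) CPM, their counts scaled to a common library total, in saline P10, 2443 ± 235 in LPS P10, 8761 ± 3647 in saline P11 (10380 ± 510 without library 2) and 10400 ± 1815 in LPS P11. Expressed as a share of all counts, the median gene thus stood 0.69 higher on the log2 scale at P11 in saline dams and 1.06 higher in LPS dams, against 0.05 and 0.10 on the authors' scale. Every rise or fall below is relative to the authors' scaling. Where the share of counts ends or turns a call between days of any of the 31 genes, this is said where its values are given. The counts of calls in other gene lists are not all given on both scales. In bulk RNA of this kind, fewer cells of a type and less RNA per cell cannot be told apart.

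Between P10 and P11 the lysosomal genes split. In saline dams 12 of the 31 were higher and 6 lower at P11, and in LPS dams 12 were higher and 9 lower. As background, 46.8% of all genes tested were called in saline dams (25.6% higher and 21.2% lower) and 52.9% in LPS dams (30.9% higher and 22.0% lower). The lysosomal genes called, 18 and 21 of the 31, were not tested against that background. Their median difference was 0.46 in saline and 0.24 in LPS dams, against 0.05 and 0.10 over all genes. Without saline P11 library 2, 16 were higher and 6 lower in saline dams, with a median of 0.60, where 31.9% and 24.8% of all genes (56.7% together) were. In LPS dams, whose own libraries are the same in that fit but whose shared spread is smaller, 13 were then higher and 10 lower, against 33.2% and 23.5%. The split depended on the scaling. As a share of all counts 25 genes were higher and 0 lower in saline dams and 27 and 0 in LPS dams. Centring every library on its median gave 9 and 7, and 5 and 13. Quantile normalisation kept the split, with 12 higher and 6 lower in saline dams and 13 and 6 in LPS dams. Of all genes it called 2868 higher and 3519 lower in saline dams, and 3222 and 3466 in LPS dams. The authors' scaling taken as log2(normalised count + 1) gave 12 and 6, and 12 and 9, for the lysosomal genes. All genes shifted with the scaling too: as a share of all counts 57.3% were higher and 3.25% lower in saline dams and 70.0% and 2.06% in LPS dams, and after median centring 17.7% and 35.9%, and 19.2% and 37.1%.

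The 10 genes called higher in both kinds of dam were Lgmn, Grn, Cd63, Ctsl, Lamp2, Lamp1, Neu1, Hexa, Ctsa and Gla. Called lower in both were Gusb, Lipa, Ctsc, Ctsh and Glb1, all but Gusb with a positive difference and none with a lower call as a share of all counts. Ctsb, Ctsd and Tfeb were called in saline dams alone and Arsb, Psap, Scarb2, Manba, Man2b1 and Gaa in LPS dams alone, and 7 genes in neither. As a share of all counts those 7 were called higher in both kinds of dam. Without saline P11 library 2, Arsb, Ctsb and Scarb2 joined those called higher in both and Tfeb those called lower in both, and Ctsd, Ctss and Tpp1 were called in saline dams alone. For none of the 31 was the difference between the kinds of dam itself called, as described further on with the LPS effect. In LPS dams 9 genes had every P11 library above every P10 library and 4 had every P11 library below, where 23.5% and 18.3% of all genes did so. In saline dams these numbers were 0 and 1 with all libraries, against 7.12% and 5.23% of all genes, and 14 and 5 without library 2, against 24.9% and 20.2%.

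**Figure D1:**
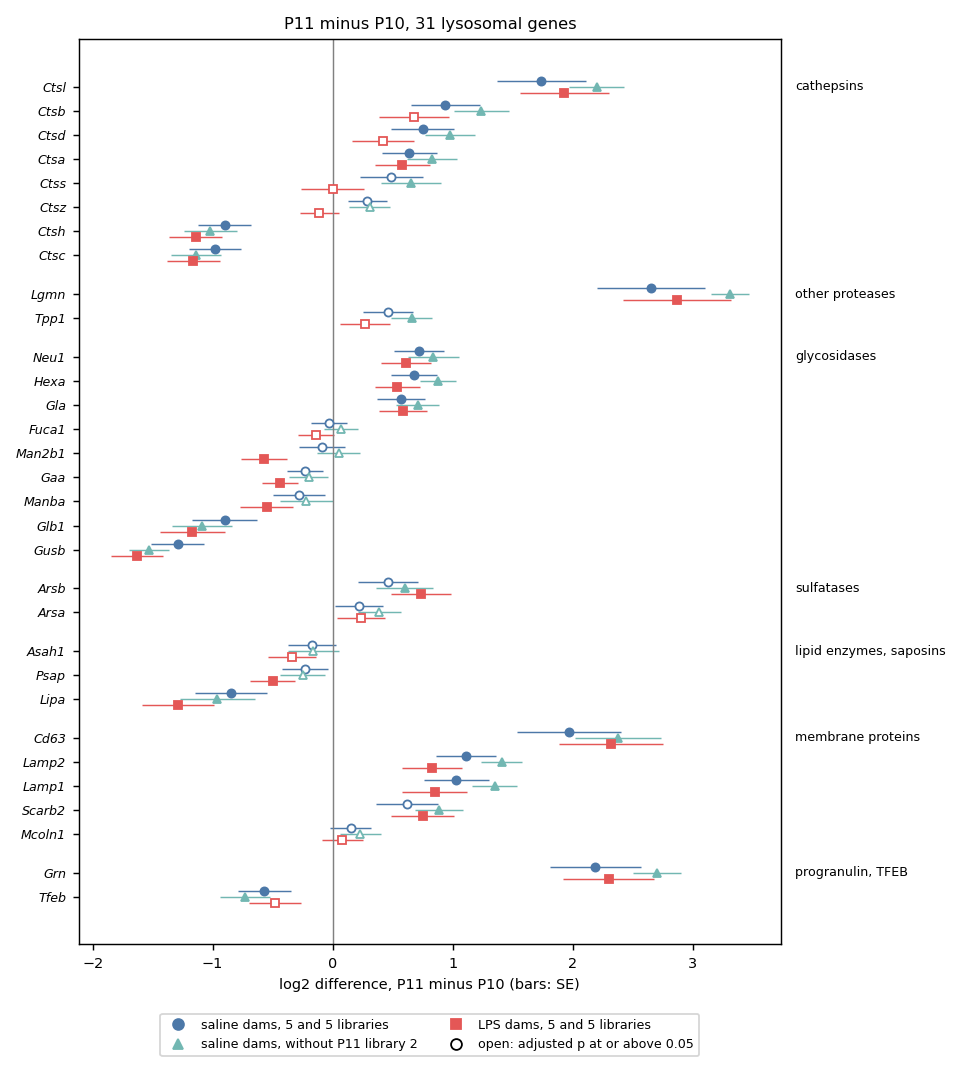
Differences between P11 and P10 on the log2 scale for the 31 lysosomal genes, ordered within classes, with bars of 1 SE; circles are saline dams, triangles saline dams without P11 library 2 and squares LPS dams, and open symbols have an adjusted p of 0.05 or more. Lgmn, Grn, Cd63 and Ctsl stand farthest to the right (1.74 to 2.65 in saline dams), and Gusb farthest to the left (-1.29).

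Of the 8 cathepsins, 4 rose at P11 in saline dams (Ctsl, Ctsb, Ctsd and Ctsa) and 2 in LPS dams (Ctsl and Ctsa). Ctsc and Ctsh were called lower in both, but neither was called lower as a share of all counts. Beside these counts, 25.6% of all genes were higher and 21.2% lower in saline dams, and 30.9% and 22.0% in LPS dams. Without saline P11 library 2, Ctss was also called higher in saline dams, where 31.9% of all genes were. Cathepsin L (Ctsl) is a cysteine endopeptidase. Its normalised counts were 6651, 4028, 3964, 5326 and 5427 in saline P10 and 27982, 18503, 24602 and 22866 in saline P11, with 4657 in library 2. In LPS dams they were 6604, 8302, 5504, 3423 and 9505 at P10 and 28978, 19913, 19766, 28217 and 26049 at P11. Apart from library 2, which lay among the P10 values, each P11 library held more than every P10 library. Ctsl rose by 1.74 ± 0.37 (SE) in saline dams (adjusted p = 9.6e-04), by 2.20 ± 0.23 without library 2 and by 1.93 ± 0.37 in LPS dams (adjusted p = 2.8e-04).

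Cathepsin B (Ctsb), a cysteine protease with endo- and exopeptidase activity, gave 34099, 29486, 20160.2, 45979.9 and 26254 normalised counts in saline P10 and 83439.8, 77961, 48477 and 81189.7 in saline P11, with 25059.9 in library 2. In LPS dams its counts were 43028, 49411, 50889.9, 34616 and 47838 at P10 and 61337, 63966, 58176, 93168 and 90655 at P11. Here too the groups did not overlap within LPS dams, nor within saline dams without library 2. The difference of 0.94 ± 0.29 was called in saline dams (adjusted p = 0.0132; 1.24 ± 0.23 without library 2) and that of 0.68 ± 0.29 in LPS dams was not (adjusted p = 0.0571), although it was without saline P11 library 2 in the fit (adjusted p = 0.0103). Cathepsin D (Ctsd), the main aspartic protease of the lysosome, gave 40016, 67223, 31037, 47138 and 31154 in saline P10 and 86661, 91334, 76902 and 74787 in saline P11, with 36386 in library 2. Its counts in LPS dams were 59973, 64067, 58130.0, 49449 and 64991 at P10 and 98187, 81221, 58226, 99824 and 65591 at P11, and these groups overlapped. Ctsd was higher by 0.75 ± 0.26 in saline dams (adjusted p = 0.0234), by 0.98 ± 0.21 without library 2, and differed by 0.42 ± 0.26 in LPS dams (adjusted p = 0.188). Cathepsin A (Ctsa), a serine carboxypeptidase that also shields β-galactosidase and neuraminidase, rose by 0.64 ± 0.23 (adjusted p = 0.0307) in saline dams, by 0.83 ± 0.21 without library 2 and by 0.58 ± 0.23 in LPS dams (adjusted p = 0.042). The Ctsd call in saline dams was lost without saline P10 library 3 or 5 or saline P11 library 1 or 3, at 0.65 to 0.67. That of Ctsa was lost in saline dams without saline P10 library 2 or 3 or saline P11 library 1, 3, 4 or 5, at 0.50 to 0.62, and in LPS dams without LPS P10 library 1, 3 or 4, LPS P11 library 1, 2, 4 or 5 or saline P11 library 3, at 0.47 to 0.62. Centring on library medians ended the calls of Ctsd in saline dams and of Ctsa in both, and a fit to the saline groups alone those of Ctsb, Ctsd and Ctsa in saline dams.

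Cathepsin C (Ctsc), a dipeptidyl peptidase that activates serine proteases of granulocytes, went the other way. It was at 8856, 5985, 11184, 7923 and 14976 normalised counts in saline P10 and 3730.1, 4874, 3343 and 5051 in saline P11, with 7216 in library 2. In LPS dams it was at 10288, 9869, 8439, 7704 and 10974 at P10 and 3345, 4103, 5902, 4079.9 and 3700.3 at P11. All P11 libraries but library 2 were below all P10 libraries. Ctsc fell by 0.98 ± 0.22 in saline dams (adjusted p = 0.00163; 1.14 ± 0.21 without library 2) and by 1.16 ± 0.22 in LPS dams (adjusted p = 3.1e-04), but as a share of all counts its differences were 0.13 (adjusted p = 0.639) and 0.48 (adjusted p = 0.0564). Cathepsin H (Ctsh), an aminopeptidase, gave 16674, 8492, 6681, 10644 and 7910.0 in saline P10 and 4806, 4915, 3742 and 5345 in saline P11, with 7232 in library 2. For LPS dams the counts were 9288, 13786, 8656, 9306 and 14745 at P10 and 3806, 4982, 5392, 5146 and 5236 at P11. As for Ctsc, the P11 libraries except library 2 lay below all P10 libraries. Its fall of 0.90 ± 0.22 in saline dams (adjusted p = 0.00272; 1.02 ± 0.22 without library 2) and 1.14 ± 0.22 in LPS dams (adjusted p = 2.9e-04) turned, as a share of all counts, into differences of 0.22 (adjusted p = 0.31) and 0.50 (adjusted p = 0.0189).

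Cathepsin S (Ctss), a cysteine protease best known from antigen-presenting cells, and cathepsin Z (Ctsz), a carboxypeptidase, passed the test in neither kind of dam. Ctss was at 336, 297, 307, 295 and 405 normalised counts in saline P10 and 453, 881, 308 and 759 in saline P11, with 285 in library 2. Its counts in LPS dams were 733, 343, 351, 310.5 and 543 at P10 and 460.0, 462, 453, 276 and 573 at P11. Both pairs of groups overlapped, with differences of 0.49 ± 0.26 (adjusted p = 0.13) and 0.00 ± 0.26 (adjusted p = 1); without library 2 the former was called, at 0.65 ± 0.25 (adjusted p = 0.0331). Ctsz was at 1523, 1233, 1053, 1124 and 1106 in saline P10 and 1600.0, 1368, 1200.2 and 1925 in saline P11, with 1419 in library 2. In LPS dams Ctsz stood at 1501, 1691, 1263, 1173 and 2063 at P10 and 1585, 1674, 1388, 985 and 1430.4 at P11. These groups overlapped as well, with differences of 0.29 ± 0.16 (adjusted p = 0.152) and -0.11 ± 0.16 (adjusted p = 0.588).

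**Figure D2:**
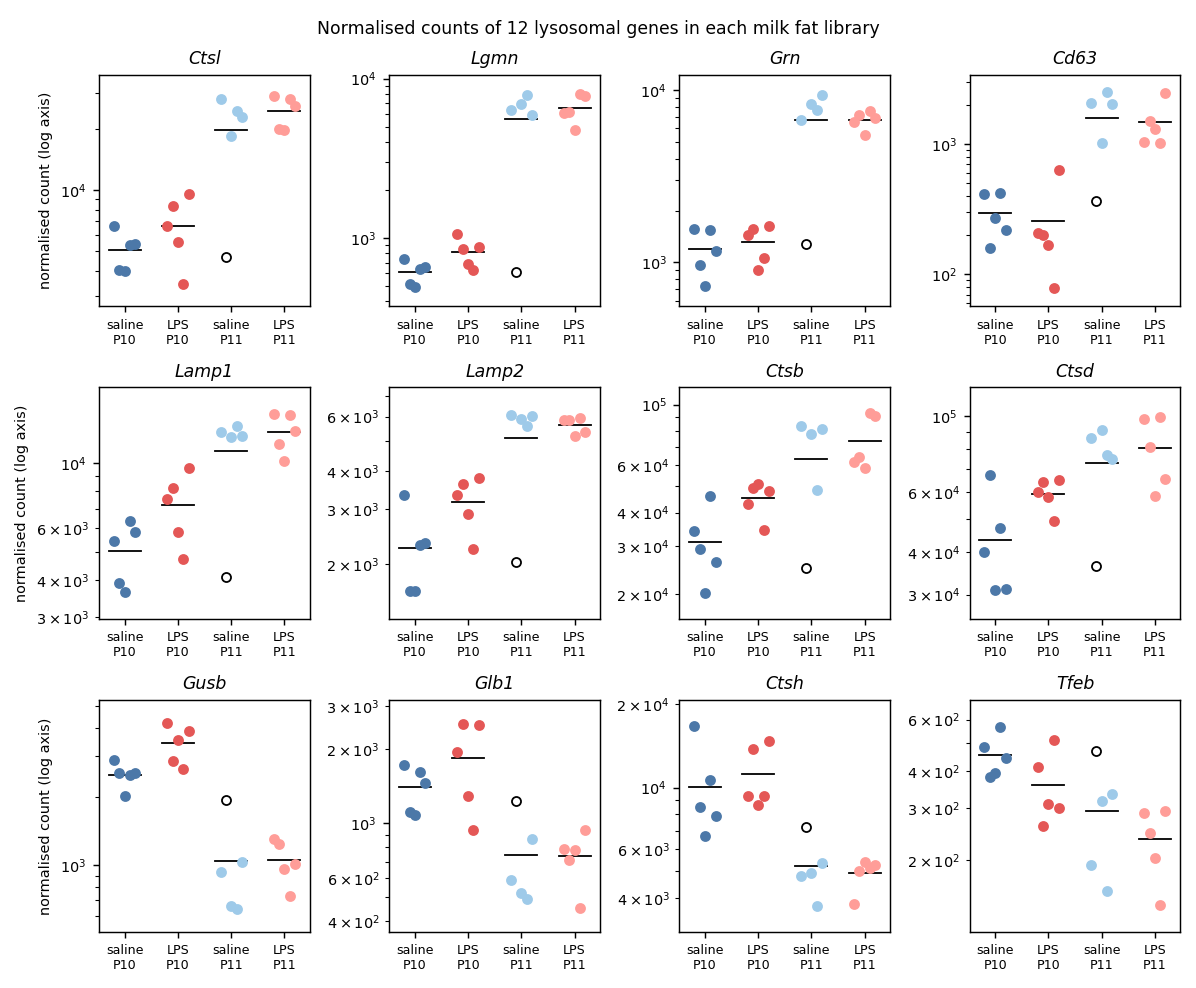
Normalised counts of 12 lysosomal genes in each library, on a log axis, by group; points are libraries, horizontal lines group means over all 5 libraries, and the open circle is saline P11 library 2. Lgmn ranges from 4759 to 8014 in the P11 libraries other than library 2 and from 495 to 1058 at P10, while every P11 value of Gusb lies below every P10 value.

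Legumain (Lgmn), the asparaginyl endopeptidase that cuts procathepsins into their mature chains, showed the widest shift of the 31 genes. Its normalised counts were 735, 512, 495, 638 and 658 in saline P10 and 6331, 6892, 7916 and 5941 in saline P11, with 614 in library 2. In LPS dams they ran from 1058, 848, 686, 628 and 873 at P10 to 6103, 6139.8, 4759, 8014 and 7720.1 at P11. Library 2 sat inside the saline P10 range and each of the other P11 libraries held more than every P10 library. Lgmn rose by 2.65 ± 0.45 (SE) in saline dams (adjusted p = 2.2e-04), by 3.31 ± 0.16 without library 2 (adjusted p = 3.8e-12) and by 2.87 ± 0.45 in LPS dams (adjusted p = 5.3e-05). Tpp1, a tripeptidyl peptidase, differed by 0.46 ± 0.21 in saline dams (adjusted p = 0.074) and was called only when saline P10 library 1 or saline P11 library 2 was left out, at 0.58 and 0.66, with array weights or as a share of all counts.

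The 9 glycosidases, which trim sugar chains from glycoproteins, glycolipids and glycosaminoglycans, did not move as a class. In saline dams 3 rose and 2 were called lower, with a median difference of -0.09, and in LPS dams 3 rose and 5 were called lower, with a median of -0.44. Of all genes, 25.6% were higher and 21.2% lower in saline dams, and 30.9% and 22.0% in LPS dams. As a share of all counts the class medians were 1.01 and 1.17, and 7 of 9 were higher and 0 lower in either kind of dam, beside the shares of all genes given above for that scaling. The same 3 genes rose in both. Hexa, the α subunit of the β-hexosaminidase that degrades GM2 ganglioside, was at 2153, 1324, 1311, 1878 and 1989.9 normalised counts in saline P10 and 3762, 3021, 3548 and 2559 in saline P11, with 1590.3 in library 2. With LPS its counts were 2972, 2955, 2209.5, 2078 and 2836 at P10 and 4227, 3897, 3338, 3809.5 and 3713 at P11. The days did not overlap in LPS dams, nor in saline dams without library 2, and Hexa rose by 0.68 ± 0.19 (adjusted p = 0.00689; 0.88 ± 0.15 without library 2) and 0.54 ± 0.19 (adjusted p = 0.0245). The sialidase Neu1 rose by 0.72 ± 0.21 (adjusted p = 0.00902; 0.84 ± 0.21 without library 2) and 0.61 ± 0.21 (adjusted p = 0.0202), and the α-galactosidase Gla by 0.57 ± 0.20 (adjusted p = 0.0227; 0.71 ± 0.18 without library 2) and 0.59 ± 0.20 (adjusted p = 0.0166). Single libraries ended some of these calls: in LPS dams that of Hexa without LPS P10 library 3 or 4 or LPS P11 library 1 (0.46 to 0.50) and that of Neu1 without LPS P10 library 4 or LPS P11 library 5 (0.45 and 0.52), and in saline dams that of Gla without saline P10 library 2 or 4 or saline P11 library 3 or 4 (0.48 to 0.53). Centring on library medians ended the calls of Gla in both kinds of dam and of Hexa and Neu1 in LPS dams, quantile normalisation those of Gla, and a fit to the saline groups alone that of Hexa in saline dams.

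Gusb, the β-glucuronidase that removes glucuronic acid from glycosaminoglycans, had the largest decrease of the 31 genes. It was at 2907, 2547, 2011, 2482 and 2529 normalised counts in saline P10 and 931, 660.5, 645 and 1034 in saline P11, with 1938 in library 2. In LPS dams Gusb was at 4189, 2853, 3552, 2641 and 3874 at P10 and 1308, 1242, 964, 732 and 1008 at P11. Every P11 library, library 2 included, lay below every P10 library of the same treatment. Gusb fell by 1.29 ± 0.22 in saline dams (adjusted p = 2.5e-04; 1.53 ± 0.17 without library 2) and 1.63 ± 0.22 in LPS dams (adjusted p = 2.0e-05), but as a share of all counts the differences were -0.24 (adjusted p = 0.242) and -0.05 (adjusted p = 0.816). Glb1, the acid β-galactosidase, was at 1728, 1115, 1086, 1618 and 1456 in saline P10 and 592, 524, 491 and 863 in saline P11, with 1237 in library 2. Counts of Glb1 in LPS dams were 1945, 2528, 1292, 939 and 2516 at P10 and 788, 712, 779, 455 and 942 at P11. Only within LPS dams did the days overlap once library 2 was left out. The log2 difference of Glb1 was -0.90 ± 0.27 in saline dams (adjusted p = 0.00982; -1.09 ± 0.25 without library 2) and -1.17 ± 0.27 in LPS dams (adjusted p = 0.00124), against 0.14 (adjusted p = 0.548) and 0.38 (adjusted p = 0.0756) as a share of all counts.

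The remaining 4 glycosidases overlapped between days in saline dams. Fuca1, the α-L-fucosidase, was at 1708, 1034, 934, 1422 and 1206 normalised counts in saline P10 and 1268, 1289, 1299 and 1332 in saline P11, with 904 in library 2. For LPS dams its counts were 1745, 1965, 1647, 1558 and 2268 at P10 and 1599, 1509, 1772, 1522 and 1874 at P11. Neither difference was called (-0.03 ± 0.15, adjusted p = 0.917, and -0.14 ± 0.15, adjusted p = 0.454), but as a share of all counts both were, at 1.06 and 1.48. Gaa, the acid α-glucosidase that digests glycogen, was at 1713, 1296, 1029, 1644 and 1301 in saline P10 and 1322, 1073, 1237 and 1133 in saline P11, with 1051 in library 2. LPS dams had 2134, 2419.6, 1702, 1412 and 2374 at P10 and 1565, 1490.4, 1201, 1349.8 and 1592 at P11. Man2b1, an α-mannosidase of N-glycan breakdown, was at 2220.2, 1964, 1264, 2007 and 1753 in saline P10 and 1666, 2021, 1296 and 2805 in saline P11, with 1119.9 in library 2. In LPS dams Man2b1 was at 2574, 2516, 2706, 2058 and 3048 at P10 and 1859, 1979, 1493, 1586 and 1616 at P11, without overlap. In LPS dams Gaa differed by -0.44 ± 0.15 (adjusted p = 0.0193), Man2b1 by -0.57 ± 0.19 (adjusted p = 0.0179) and the β-mannosidase Manba by -0.55 ± 0.22 (adjusted p = 0.0369), and as a share of all counts all of them were higher, by 1.17, 1.04 and 1.03. Quantile normalisation also ended these LPS calls, testing without a filter or on the LPS groups alone that of Manba, as did leaving out LPS P10 library 2 or 5 or LPS P11 library 3 for Gaa (-0.38 to -0.37) and LPS P10 library 1, 2 or 5 or LPS P11 library 1, 3 or 5 for Manba (-0.53 to -0.46).

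The sulfatases remove sulfate groups, Arsa from sulfatide and Arsb from dermatan and chondroitin sulfate. Arsb was higher in LPS dams by 0.74 ± 0.25 (adjusted p = 0.016), a call that ended without LPS P11 library 5 (0.64), under median centring and in a fit to the LPS groups alone. In saline dams its difference was 0.46 ± 0.25 (adjusted p = 0.13), or 0.60 ± 0.24 without library 2 (adjusted p = 0.0402), and that of Arsa 0.22 ± 0.20 (adjusted p = 0.394). As a share of all counts both were called in saline dams, Arsb at 1.54 and Arsa at 1.27. Among the genes of lipid breakdown, Lipa, the lysosomal acid lipase that frees cholesterol and fatty acids, was at 3224, 1474, 2943, 3063 and 2298 normalised counts in saline P10 and 1556, 1444, 921 and 1154 in saline P11, with 1897 in library 2. LPS dams held 3714, 5878, 2134, 1941 and 4883 at P10 and 1986, 1456, 1561, 767 and 1215 at P11. The days overlapped in both, even without library 2. Lipa had differences of -0.85 ± 0.30 (adjusted p = 0.0264; -0.96 ± 0.31 without library 2) and -1.29 ± 0.30 (adjusted p = 0.00149), which as a share of all counts were 0.23 (adjusted p = 0.403) and 0.31 (adjusted p = 0.24). Leaving out saline P10 library 1, 3 or 4 or saline P11 library 4 or 5 ended the Lipa call in saline dams, at -0.79 to -0.72. Psap, the precursor of the saposins that present glycolipids to hydrolases, differed by -0.50 ± 0.19 in LPS dams (adjusted p = 0.0305), against 1.16 as a share of all counts, -0.01 under quantile normalisation and -0.49 to -0.37, not called, without LPS P10 library 1, 2 or 5 or LPS P11 library 3 or 4. The acid ceramidase Asah1 differed by -0.17 ± 0.20 in saline dams (adjusted p = 0.491), against 0.92 as a share of all counts (adjusted p = 0.00139).

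All 5 membrane proteins had positive differences in both kinds of dam, where 53.9% and 59.5% of all genes did. Called higher were 3 in saline dams and 4 in LPS dams, beside 25.6% and 30.9% of all genes. As a share of all counts all 5 rose in both, where 57.3% and 70.0% of all genes were higher. LAMP1 (Lamp1) and LAMP2 (Lamp2) are the heavily glycosylated proteins that coat the inner face of the lysosomal membrane, and LAMP2 also takes part in fusion with autophagosomes. Lamp1 was at 5449.6, 3900.4, 3643, 6364 and 5839 normalised counts in saline P10 and 12704, 12205, 13396 and 12329 in saline P11, with 4114 in library 2. Its counts in LPS dams were 7566, 8214, 5817, 4719 and 9628 at P10 and 14647, 11622, 10126, 14556 and 12827 at P11. The days did not overlap in LPS dams or, without library 2, in saline dams, and library 2 was inside the saline P10 range. Lamp1 rose by 1.03 ± 0.27 in saline dams (adjusted p = 0.0048), by 1.35 ± 0.19 without library 2 and by 0.85 ± 0.27 in LPS dams (adjusted p = 0.0134), the last of which was not called under median centring. Lamp2 was at 3336, 1637, 1629, 2296 and 2327 in saline P10 and 6074, 5898, 5607 and 6017 in saline P11, with 2032 in library 2. LPS dams had 3339, 3622, 2892, 2237 and 3789 at P10 and 5855, 5855, 5206, 5937 and 5364 at P11. As for Lamp1, the days were apart except for library 2, and Lamp2 rose by 1.11 ± 0.25 (adjusted p = 0.00154) in saline dams, 1.41 ± 0.17 without library 2 and 0.83 ± 0.25 (adjusted p = 0.00892) in LPS dams.

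The tetraspanin CD63 (Cd63), found in late endosomes, lysosomes and secreted vesicles, was at 412, 160.3, 269, 423 and 218 normalised counts in saline P10 and 2068, 1016, 2487 and 2026 in saline P11, with 365 in library 2. In LPS dams Cd63 was at 207, 200.5, 169, 78.5 and 634 at P10 and 1041, 1498, 1289.6, 1012 and 2459 at P11. Its spread at P10 was wide, yet each P11 library other than library 2 exceeded all P10 libraries, and Cd63 rose by 1.97 ± 0.43 (adjusted p = 0.00127; 2.38 ± 0.36 without library 2) and 2.32 ± 0.43 (adjusted p = 2.3e-04). Scarb2, or LIMP-2, the receptor that carries glucocerebrosidase to the lysosome, rose in LPS dams by 0.75 ± 0.26 (adjusted p = 0.0205), a call lost under median centring and without LPS P10 library 4 or LPS P11 library 1 or 4 (0.63 to 0.67). In saline dams Scarb2 differed by 0.62 ± 0.26 (adjusted p = 0.0595) and rose by 0.89 ± 0.20 without library 2 (adjusted p = 9.7e-04), when the days no longer overlapped. In that fit 4 of the 5 membrane proteins were called higher in saline dams, beside 31.9% of all genes. Mcoln1, the calcium channel TRPML1 whose opening activates TFEB, was at 1199, 737, 737, 1062 and 1089.8 in saline P10 and 1068, 1044, 1121 and 1293 in saline P11, with 828 in library 2. With LPS the counts of Mcoln1 were 1578, 1406, 966, 899 and 1016 at P10 and 1428, 1143, 1086, 1444 and 1047 at P11. The days overlapped in both kinds of dam, with differences of 0.15 ± 0.17 (adjusted p = 0.489) and 0.08 ± 0.17 (adjusted p = 0.701), which were 1.24 and 1.68 and called as a share of all counts, and -0.07 and -0.19 under median centring.

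Progranulin (Grn), a secreted and lysosomal protein that is cut into granulins and that supports lysosomal enzymes, stood beside Lgmn among the largest increases. Its normalised counts were 1564, 961, 731, 1542 and 1165 in saline P10 and 6691, 8272, 7678 and 9433 in saline P11, with 1282 in library 2. They were 1442, 1569, 910.4, 1058 and 1635 in LPS P10 and 6572, 7197, 5517, 7549 and 6897 in LPS P11. Again library 2 lay in the P10 range and the other P11 libraries did not overlap with P10. Grn rose by 2.19 ± 0.38 in saline dams (adjusted p = 2.4e-04), 2.70 ± 0.20 without library 2 and 2.30 ± 0.38 in LPS dams (adjusted p = 7.6e-05). The transcription factor gene Tfeb was at 485, 384, 395, 566 and 444 in saline P10 and 192, 317, 157 and 335 in saline P11, with 469 in library 2. In LPS dams Tfeb was at 414, 262, 311, 511 and 301 at P10 and 289, 248, 203, 141 and 294 at P11. The days overlapped in LPS dams, and in saline dams through library 2 alone. Tfeb differed by -0.57 ± 0.22 in saline dams (adjusted p = 0.0387), by -0.73 ± 0.21 without library 2 and by -0.48 ± 0.22 in LPS dams (adjusted p = 0.0725; 0.0404 without saline P11 library 2 in the fit), while as a share of all counts it was 0.36 (adjusted p = 0.242) and 0.88 (adjusted p = 0.00568). The saline call was lost without saline P10 library 1, 4 or 5 or saline P11 library 1 or 4, at -0.58 to -0.42, and in a fit to the saline groups alone. TFEB activity is set largely by where the protein sits in the cell, which these data do not measure.

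The promoters of genes with different outcomes are shown for the element that TFEB binds. The RefSeq tables of the assembly GRCr8 held a window from 250 bases before to 50 after the annotated start for 25 of the 31 genes; Ctsb, Hexa, Arsa, Arsb, Asah1 and Psap had none and are named only. The E-box core CACGTG, which reads the same on both strands, was present in 6 of the 25 windows (24.0%), against 6.42% of all 33469 windows in the tables. Its 8-base extension TCACGTGA, which contains the core and is also its own reverse complement, was present in 3 of 25 (12.0%), against 0.777% of all windows. The 33469 windows were not limited to the 14022 genes tested here, so these shares set unlike groups of promoters side by side. Matches were found in Lamp1, Mcoln1, Ctsd, Glb1, Gaa and Cd63. They describe letters in a window and no measured binding. At most 6 windows are shown, taken from genes chosen for their role or for the size of their change; the window of Gaa, named for its p-value, is not printed. Of the genes below, Lamp1, Ctsd and Cd63 were called higher in saline dams, and Mcoln1 was not called on the authors' scale. Glb1 was called lower on the authors' scale but not as a share of all counts. Lgmn, with the largest increase, has no match. The strand is that of the gene, and capitals mark the E-box core. The windows lie at chr16:83075014-83075313 (minus strand), chr12:6358008-6358307 (plus), chr1:206968772-206969071 (minus), chr8:122963468-122963767 (plus), chr7:1921894-1922193 (plus) and chr6:127347279-127347578 (minus).
Lamp1: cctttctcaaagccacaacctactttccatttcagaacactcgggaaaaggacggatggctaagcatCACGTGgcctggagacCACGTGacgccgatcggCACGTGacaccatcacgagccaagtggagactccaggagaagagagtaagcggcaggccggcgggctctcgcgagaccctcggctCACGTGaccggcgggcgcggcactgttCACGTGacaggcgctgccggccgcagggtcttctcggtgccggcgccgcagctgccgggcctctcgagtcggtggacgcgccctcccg
Mcoln1: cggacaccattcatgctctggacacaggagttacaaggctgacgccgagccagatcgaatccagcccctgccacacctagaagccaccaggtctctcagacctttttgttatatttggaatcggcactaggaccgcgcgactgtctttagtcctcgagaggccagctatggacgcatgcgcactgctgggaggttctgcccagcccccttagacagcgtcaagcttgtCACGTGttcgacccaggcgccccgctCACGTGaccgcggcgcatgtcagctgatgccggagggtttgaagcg
Ctsd: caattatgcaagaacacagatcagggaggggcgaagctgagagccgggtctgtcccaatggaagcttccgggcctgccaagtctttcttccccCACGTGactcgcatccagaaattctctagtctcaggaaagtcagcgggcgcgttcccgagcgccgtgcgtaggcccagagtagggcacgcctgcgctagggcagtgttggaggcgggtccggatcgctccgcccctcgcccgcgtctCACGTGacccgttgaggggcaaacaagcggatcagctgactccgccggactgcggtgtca
Glb1: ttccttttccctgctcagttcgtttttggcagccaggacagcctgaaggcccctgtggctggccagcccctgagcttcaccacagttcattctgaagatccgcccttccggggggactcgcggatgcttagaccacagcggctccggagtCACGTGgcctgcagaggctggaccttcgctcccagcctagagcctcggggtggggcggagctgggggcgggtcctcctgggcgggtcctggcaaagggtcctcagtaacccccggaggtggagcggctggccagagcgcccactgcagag
Cd63: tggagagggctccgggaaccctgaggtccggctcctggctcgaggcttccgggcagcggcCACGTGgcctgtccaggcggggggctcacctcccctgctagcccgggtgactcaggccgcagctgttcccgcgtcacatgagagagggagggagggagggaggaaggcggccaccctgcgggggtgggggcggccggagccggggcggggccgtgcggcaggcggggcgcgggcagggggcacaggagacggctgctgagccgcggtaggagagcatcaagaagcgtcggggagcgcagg
Lgmn: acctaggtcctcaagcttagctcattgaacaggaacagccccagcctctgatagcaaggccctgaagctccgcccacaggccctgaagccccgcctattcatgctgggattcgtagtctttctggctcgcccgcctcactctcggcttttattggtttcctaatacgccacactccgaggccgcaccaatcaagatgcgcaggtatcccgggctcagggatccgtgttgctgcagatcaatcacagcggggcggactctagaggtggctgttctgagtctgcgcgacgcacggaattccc
Lamp1 held 5 cores, of which 2 were in the extended form, Mcoln1 and Ctsd 2 each with 1 extended, and Glb1, Gaa and Cd63 1 each. Side by side and without a test, the 6 genes with a core differed in saline dams by 1.03 (Lamp1), 0.15 (Mcoln1), 0.75 (Ctsd), -0.90 (Glb1), -0.23 (Gaa) and 1.97 (Cd63). Those of Mcoln1 and Gaa were not called. Among genes whose window held no core, Lgmn rose by 2.65, and Gusb differed by -1.29, or by -0.24 without a call as a share of all counts.

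**Figure D3:**
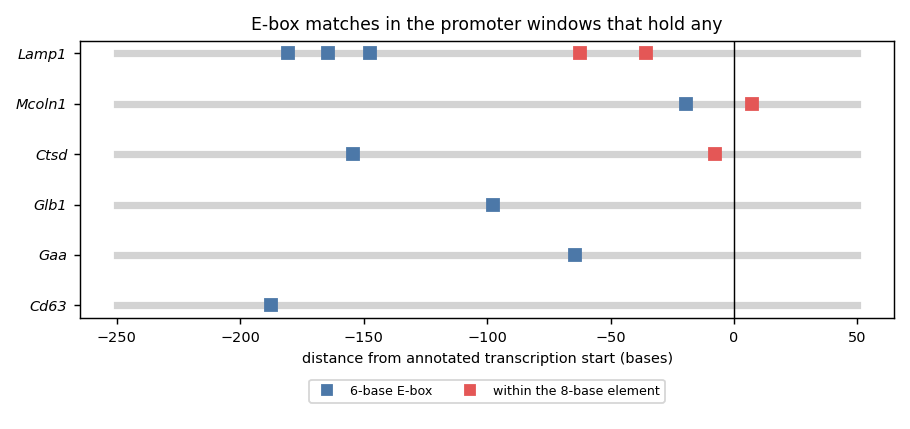
Positions of the E-box core in the 6 promoter windows that hold it, as distance in bases from the annotated start (vertical line); grey bars are the windows and red marks cores within the 8-base form. Lamp1 has 5 cores, 2 of them in the 8-base form.

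Set against each other within a library, cathepsins gained on glycosidases and lost against membrane proteins between the days. The mean log2 value of the 8 cathepsins minus that of the 9 glycosidases was 2.14 ± 0.06 (SD, n = 5) in saline P10, 2.03 ± 0.11 in LPS P10, 2.60 ± 0.24 in saline P11 and 2.49 ± 0.10 in LPS P11. Without library 2, at 2.22, saline P11 was at 2.70 ± 0.13 (n = 4). The range was 2.07 to 2.20 in saline P10 and 2.54 to 2.84 in the 4 other saline P11 libraries, and 1.90 to 2.20 and 2.39 to 2.62 in LPS dams, so the days did not overlap. Cathepsins minus the 5 membrane proteins gave 1.90 ± 0.19 in saline P10, 2.01 ± 0.10 in LPS P10, 1.30 ± 0.40 in saline P11 (1.16 ± 0.28 without library 2, at 1.87) and 1.19 ± 0.11 in LPS P11. Here the ranges were 1.78 to 2.23 in saline P10 and 0.77 to 1.44 in saline P11 without library 2, and 1.91 to 2.16 and 1.11 to 1.35 in LPS dams. Quantile normalisation moved the change of cathepsins minus glycosidases between days from 0.47 to 0.69 in saline and from 0.46 to 0.78 in LPS dams, and that of cathepsins minus membrane proteins in LPS dams from -0.82 to -0.58. No test was made of them, because the genes were listed with results of these libraries known. The class means hide opposite members, since Ctsl and Ctsc are both cathepsins and Hexa and Gusb both glycosidases.

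**Figure D4:**
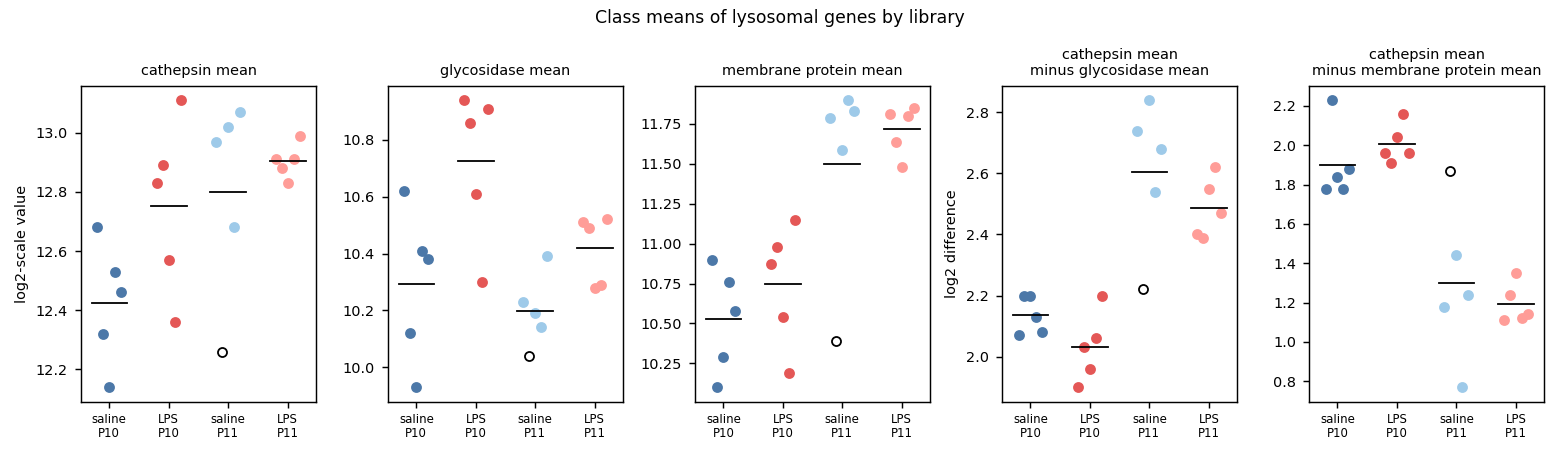
Mean log2-scale value of cathepsins, glycosidases and membrane proteins in each library, and the differences between these means; points are libraries, lines group means over all 5, and the open circle is saline P11 library 2. Cathepsins minus glycosidases lies at 2.39 or more in each P11 library other than library 2 (2.22) and at 2.20 or less at P10.

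Markers of other cells moved with the day in the same libraries. Beside the marker counts below, 25.6% of all genes were higher and 21.2% lower in saline dams. These shares were 31.9% and 24.8% without library 2, and 30.9% and 22.0% in LPS dams. The summed normalised counts of 15 neutrophil markers were 64.3 to 244.5 in saline P10 and 86.4 to 932.6 in LPS P10, but 10720 to 36380 in saline P11, with 181.6 in library 2, and 6226 to 20780 in LPS P11; 9 of the 15 rose in saline dams (12 without library 2) and 12 in LPS dams. Csf3r, the receptor for granulocyte colony-stimulating factor, was at 30.3 ± 25.2 (SD, n = 5) in saline P10 and at 2442 to 7399.5 in saline P11, with 33.0 in library 2, and rose by 4.49 ± 0.87 (adjusted p = 5.3e-04). S100a8, a calcium-binding protein abundant in neutrophils, was at 32.6 ± 12.9 and at 2335 to 9064, with 55.5 in library 2, and rose by 4.33 ± 0.71 (adjusted p = 1.9e-04). In LPS dams Csf3r was at 85.0 ± 105 at P10 and 2141 ± 1614 at P11, and S100a8 at 75.1 ± 57.6 and 4442 ± 1135, and they rose by 3.66 ± 0.87 and 5.01 ± 0.71. The listed genes Mpo and Elane, known from neutrophil precursors, and Cxcr1 were at 0 in all P10 libraries, and at P11 Mpo was at 0 in LPS libraries and reached 13.0 in saline ones, while Elane and Cxcr1 were at 0 in saline libraries and reached 9.3 and 2.0 in LPS ones. For 15 macrophage markers the sums were 2121 to 2848, 2163 to 4266, 8349 to 47740 (2966 in library 2) and 7644 to 15990, and 5 rose in saline dams (6, with 1 lower, without library 2) and 6 in LPS dams. The largest of the 15 group means at P11 were those of Lyz2 (12570 ± 16880 in saline and 4357 ± 3402 in LPS dams) and Cd14 (2857 ± 1845 and 4271 ± 1192). The 5 that rose in saline dams were Lyz2 (3.84 ± 0.88, adjusted p = 0.00167), Fcgr1a (2.75 ± 0.74), Cd14 (2.10 ± 0.52), Cd68 (1.46 ± 0.36) and Msr1 (1.12 ± 0.32). Lyz2, which encodes a lysozyme, was at 287 ± 134 in saline P10 and at 1429 to 40362 in saline P11, with 774 in library 2, and the Fc receptor gene Fcgr1a at 17.2 ± 8.49 and at 263 to 2476, with 6.9 in library 2. Not among the 5 were C1qa, C1qb, C1qc and Mrc1. In saline dams their group means were 33.3, 29.7, 36.7 and 8.2 at P10 and 46.5, 38.3, 47.8 and 33.8 at P11. In LPS dams these means were 55.0, 44.5, 58.2 and 12.1 at P10 and 109.4, 70.7, 72.1 and 58.4 at P11. Of 3 others on the list, none of them called in saline dams with all libraries, Cd163 was at 0 in every P10 library and at most 4.7 at P11, Adgre1 reached at most 26.5 (called lower in saline dams without library 2, at -0.39 ± 0.14), and Csf1r was at 24.7 to 86.6 in saline P10 and 24.0 to 363.7 in saline P11, with 126 in library 2 (0.55 ± 0.34, adjusted p = 0.191). The luminal list moved in both directions, with 5 of 15 markers higher, among them Krt8, Krt18, Krt19 and Epcam, and 7 lower in saline dams, among them Lalba, Elf5 and Prlr. Csn3, also called lower (-2.21 ± 0.86, adjusted p = 0.0421), was not called as a share of all counts (-1.08, adjusted p = 0.212). The myoepithelial sum of 8 markers went from 1035 to 1666 in saline P10 to 15670 to 22800 in saline P11 without library 2, which had 2614. In those P11 libraries most of it was Acta2 (9905 to 12627) and Krt17 (5615 to 9941). Both were called higher in saline dams, as were Krt14 and Cnn1, and Krt5, Myh11, Oxtr and Tp63 (-0.31 ± 0.23) were not. Without library 2 Myh11 and Oxtr were called higher and Tp63 lower (-0.54 ± 0.19). As a share of all counts all but Tp63 (0.11) were called higher. The lymphocyte sum of 10 markers, 101.3 to 139.3 in saline P10, was 12.2 to 90.1 in saline P11, with 118.5 in library 2. In LPS dams it was 74.7 to 132.4 at P10 and 50.7 to 174.0 at P11. Cd3e fell by 0.65 ± 0.17 in both kinds of dam, without a call as a share of all counts (-0.22 and -0.16). Cd3g fell by 0.85 ± 0.16 and 1.03 ± 0.16, and was called lower on either scale. Cd4 rose in LPS dams by 0.75 ± 0.21 (adjusted p = 0.00587). Of 5 red blood cell markers 1 was called higher and 2 lower in saline dams, and of 2 skin keratinocyte markers 0 and 0. The 2 lower ones, Hbb and Alas2, spread widely in saline P10. Hbb was at 2336 ± 4936 there, from 21.4 to 11164.1, and Alas2 at 104 ± 212, from 0.0 to 483.7. Several lysosomal genes, such as Grn, Lgmn, Ctss and Cd63, are also expressed by macrophages or neutrophils, and the part of these cells in the differences between days was not tested.

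LPS itself gave no call among the lysosomal genes. At P10, 2 h after injection, 0 of 31 were called and 4 had an unadjusted p under 0.05, where 0.0% of all genes were called and 4.44% had such a p. Leaving saline P11 library 2 out of the fit, which narrows the shared spread, gave 0 calls and 12 such p, against 7.45% of all genes. Most differences were positive: 28 of 31 lay above 0, with a median of 0.35, whereas 43.8% of all genes did and their median was 0.00. As a share of all counts 20 of 31 were positive and the median was 0.04, against -0.14 over all genes. At P11, 24 h after injection, 0 of 31 were called and 2 had an unadjusted p under 0.05, against 0.0856% and 7.16% of all genes. There 25 of 31 differences were positive, with a median of 0.19, where 54.3% of all genes were. Without saline P11 library 2 it was 20 of 31 with a median of 0.05, where 53.0% were, with 0 calls (0.0642% of all genes) and 1 unadjusted p under 0.05 (10.3%). All 9 glycosidases and 8 cathepsins had a positive difference at P10, and the genes that went the other way were Cd63, Tfeb and, with a difference that rounds to 0, Arsb. These counts share libraries and carry no test of their own.

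With all libraries the smallest p-values at both times were those of Fuca1, Hexa and Gaa, whose values per library are given with the glycosidases. At P11 without library 2, Gusb (0.33 ± 0.17, adjusted p = 0.518) came after Fuca1 and before Gaa and Hexa. Fuca1 was higher with LPS by 0.53 ± 0.15 at P10 (adjusted p = 0.898) and by 0.42 ± 0.15 at P11 (adjusted p = 0.507), or 0.33 ± 0.14 at P11 without library 2. At P11 all 5 LPS libraries of Fuca1 were above all 5 saline libraries, the only gene of the 31 for which this held, also without library 2, where 0.385% of all genes had it (1.01% without library 2), and at P10 the groups overlapped, as they did for all 31 genes (0.378% of all genes did not overlap with LPS higher and 0.635% with LPS lower). At P11 0 genes of the 31 had all LPS libraries lower, against 0.264% (1.18% without library 2). Hexa differed by 0.58 ± 0.19 at P10 (adjusted p = 0.963) and 0.43 ± 0.19 at P11 (adjusted p = 0.672), and Gaa by 0.49 ± 0.15 (adjusted p = 0.898) and 0.29 ± 0.15 (adjusted p = 0.714). Over the alternative settings the adjusted p of these 3 genes ranged from 0.145 to 1 at P10 and from 0.35 to 0.952 at P11. At P10 the cathepsins Ctsb and Ctsd differed by 0.57 ± 0.29 and 0.51 ± 0.26, and Lamp1 and Lamp2 by 0.50 ± 0.27 and 0.51 ± 0.25, with an adjusted p of 1 each.

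The authors' deposited table of their own LPS comparison, which lists genes with an unadjusted p under 0.05, held 12 of the 31 genes at P10 and all 12 were higher with LPS. The share of the 14022 genes that this table lists as higher is 4.36%. In the authors' deposited table the log2 fold changes of these genes ran from 0.43 (Lgmn) to 0.60 (Hexa), and their adjusted p from 0.106 (Hexa) to 0.501 (Ctss), so that 0 were under 0.05. At P11 the authors' deposited table listed 2 of the 31, Fuca1 with a log2 fold change of 0.36 (adjusted p = 0.274) and Gaa with 0.29 (adjusted p = 0.62), where 3.40% of genes are listed as higher. Those tables come from the same libraries and are no independent support.

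Whether the LPS effect differed between the times was tested directly, and 0 of 31 genes were called, with 0 at an unadjusted p under 0.05 (0.0357% and 4.53% of all genes). The difference was positive for 9 of 31, where it was so for 55.5% of all genes. Without saline P11 library 2 it was positive for 2 of 31 (53.8% of all genes), with 0 calls (0.0285%) and 2 unadjusted p under 0.05 (8.58%). The latter were those of Man2b1 (-0.62 ± 0.25, adjusted p = 0.515) and Lamp2 (-0.57 ± 0.23, adjusted p = 0.519). The difference of the LPS effect is the same as the difference between the changes from P10 to P11 in LPS and in saline dams. With all libraries the 3 smallest p-values were those of Man2b1 (-0.48 ± 0.27, adjusted p = 0.968), Ctsz (-0.40 ± 0.23, adjusted p = 0.968) and Ctss (-0.49 ± 0.37, adjusted p = 0.968). As a share of all counts the differences of Man2b1 and Ctsz turned to 0.04 and 0.10. Man2b1 was 0.48 higher with LPS at P10 and differed by 0.00 at P11.

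**Figure D5:**
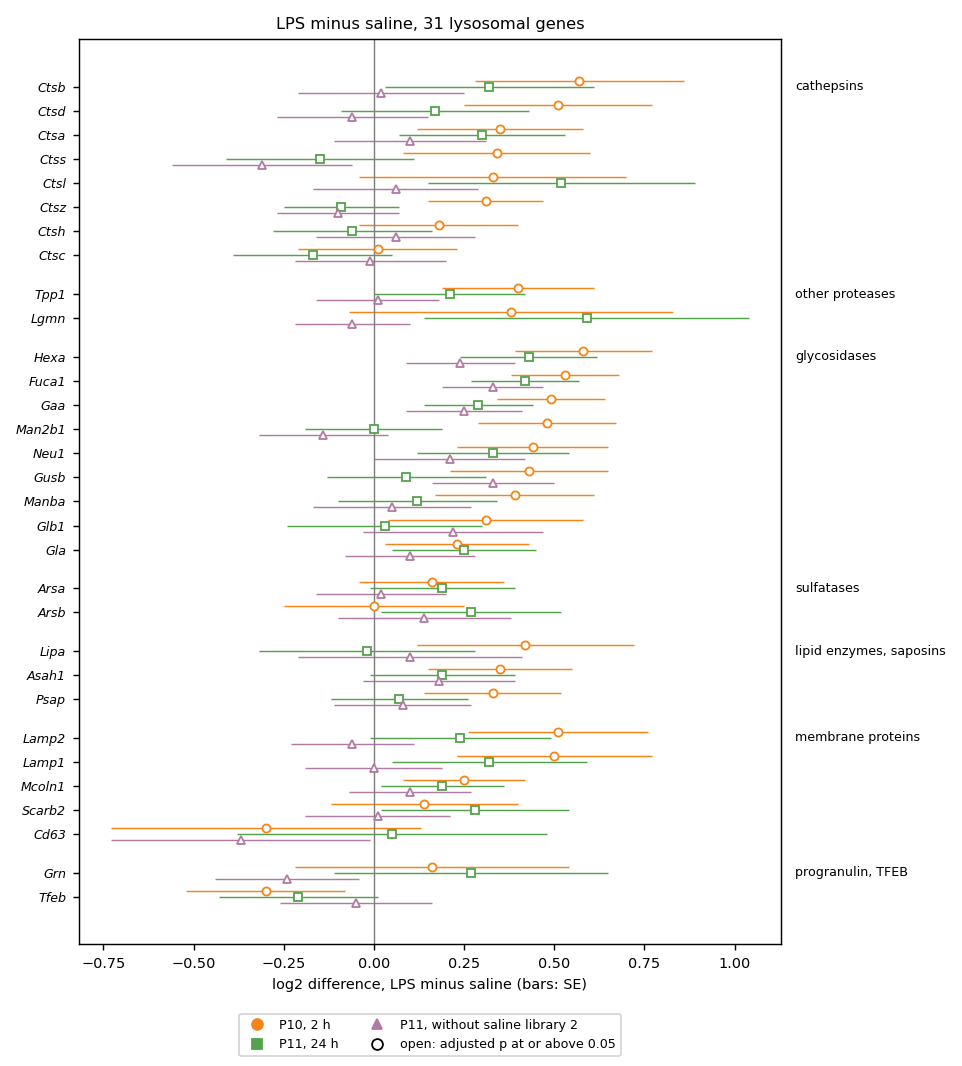
Differences between LPS and saline libraries on the log2 scale for the 31 genes, with bars of 1 SE; circles are P10, squares P11 and triangles P11 without saline library 2, and all symbols are open because no adjusted p is under 0.05. At P10 28 of 31 lie to the right of 0, and at P11 without library 2 20 of 31.

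The rest of the lysosomal pathway was read from 6 further lists. Of 30 other hydrolases and their cofactors, 8 rose and 6 were called lower in saline dams and 10 and 9 in LPS dams, with medians of 0.14 and 0.04. The saline counts lie near the 25.6% and 21.2% of all genes, and without library 2 they were 14 and 6, beside 31.9% and 24.8%. In LPS dams the shares of all genes were 30.9% and 22.0%. Gm2a, the activator that hands GM2 to Hexa, was at 1342 ± 174.5 (SD, n = 5) normalised counts in saline P10 and 8037 ± 4366 in saline P11, where it ranged from 980.4 to 12935, and rose by 2.14 ± 0.44 (adjusted p = 7.4e-04), or 2.78 ± 0.16 without library 2, and by 2.41 ± 0.44 in LPS dams. Ppt2, a thioesterase related to palmitoyl-protein thioesterase, went from 624 ± 221 to 195 ± 165 and fell by 1.51 ± 0.29 (adjusted p = 5.0e-04), also as a share of all counts (-0.72, adjusted p = 0.0201), and by 1.81 ± 0.23 without library 2, at 475. In LPS dams Ppt2 differed by -1.65 ± 0.29 (adjusted p = 1.4e-04), without a call as a share of all counts (-0.38, adjusted p = 0.187). Of 26 other membrane proteins and transporters, 7 rose and 6 were called lower in saline dams, again near the shares of all genes, and 11 and 6 without library 2. Slc38a9, the arginine sensor of mTORC1, went from 31.7 ± 32.5 to 274.6 ± 142.5 and rose by 1.80 ± 0.32 (adjusted p = 2.8e-04), or 2.15 ± 0.24 without library 2, at 50.4, and Slc15a4, a histidine and peptide transporter, rose by 1.45 ± 0.26 (adjusted p = 3.3e-04), or 1.80 ± 0.14 without it. In each of the 6 lists 0 genes were called between LPS and saline at P10 or P11.

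The proton pump, the sorting machinery and the regulators of TFEB follow. On the authors' scale 25.6% of all genes were higher and 21.2% lower in saline dams (31.9% and 24.8% without library 2). The counts as a share of all counts are read beside 57.3% higher and 3.25% lower over all genes. Of 22 subunits of the V-ATPase, the pump that acidifies the lysosome, 4 were called higher and 6 lower in saline dams (7 and 7 without library 2), against 15 and 0 as a share of all counts. Atp6v1c2 and Atp6v0d1 differed by -1.32 ± 0.32 and -1.26 ± 0.25 on the authors' scale and by -0.50 and -0.16, without a call, as a share of all counts. Of 24 genes of mannose-6-phosphate and vesicle sorting, 2 were called higher and 14 lower in saline dams (4 and 16 without library 2), against 13 and 1. The exception was Sort1, which encodes sortilin, a receptor that carries progranulin and prosaposin to the lysosome. It was at 22630 ± 5094 (SD, n = 5) normalised counts in saline P10, 30110 ± 8017 in LPS P10, 4125 ± 4163 in saline P11 (2277 ± 597 without library 2, at 11515) and 2801 ± 985 in LPS P11, and differed by -2.80 ± 0.38 (adjusted p = 7.0e-05) in saline and -3.42 ± 0.38 (adjusted p = 8.0e-06) in LPS dams, lower also as a share of all counts (-1.71, adjusted p = 1.1e-04, and -1.79, adjusted p = 9.5e-06). Vps18, of the tethering complex that fuses endosomes with lysosomes, differed by -1.44 ± 0.31 in saline dams, and by -0.41 without a call as a share of all counts. Of 19 genes of TFEB and mTORC1 regulation, 0 were called higher and 9 lower (2 and 9 without library 2), against 14 and 0; the Ragulator subunit Lamtor2 differed by -1.37 ± 0.26 and Mtor by -0.84 ± 0.20, against -0.30 and 0.26 as a share of all counts.

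Of 8 listed protease inhibitors and related genes 5 rose and 2 were called lower in either kind of dam, with medians of 0.81 and 1.14, and as a share of all counts 5 rose in both while 1 and 0 were lower. Over all genes 25.6% were higher and 21.2% lower in saline dams, and 30.9% and 22.0% in LPS dams. As a share of all counts these were 57.3% and 3.25%, and 70.0% and 2.06%. Slpi, an inhibitor of neutrophil serine proteases, was at 21.9 ± 9.66 (SD, n = 5) normalised counts in saline P10, 32.6 ± 25.6 in LPS P10, 2612 ± 1449 in saline P11 and 2714 ± 604 in LPS P11. It rose by 4.37 ± 0.61 (adjusted p = 7.3e-05) in saline dams, where the lowest of the 5 values was 75.7, by 5.27 ± 0.21 without library 2 and by 4.85 ± 0.61 in LPS dams. Timp1, an inhibitor of matrix metalloproteases, went from 29.8 ± 23.8 to 2029 ± 1123 in saline dams and rose by 4.08 ± 0.49 (adjusted p = 5.2e-05) there, by 4.76 ± 0.24 without library 2 and by 4.32 ± 0.49 (adjusted p = 8.0e-06) in LPS dams.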

How the data were processed

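RNA of 20 milk fat libraries was sequenced in 4 groups of 5. The deposited table, named rlog by the authors, holds log2-scale values; DESeq2 and the genome build rn6 come per the submitters' processing notes, while aligner and annotation were not given in the sources used here. Its single lowest value (5.46, 30.4% of entries) fits a variance-stabilising transformation, and inverting it gave normalised counts at 0.853 to 0.857 of the authors' base means at P10 and 1.054 to 1.425 at P11 (5th to 95th percentiles). The authors' deposited comparison of LPS with saline gives log2 fold changes, p-values and a Wald score for genes with an unadjusted p under 0.05; the score was not used. Values of low genes fell within 0.05 of whole reads for 69.7% to 97.2% per library, where 10.0% would by chance, which gives depth approximately but allows no count test.

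A limma model (version 3.58.1, R 4.3.3) of the 4 groups with a mean-variance trend was fitted to the 14022 genes above the lowest value, of 16748, in 5 comparisons with Benjamini-Hochberg adjustment, after a check on simulated data. The model's p-values measure the spread between libraries, some from the same dam. Alternatives were log2(normalised count + 1), quantile normalisation, median centring, filters, no trend, array weights, the groups compared alone and leaving out each library. The share of all counts, as log2(CPM + 1), was added after seeing the data. Members and gene lists were chosen with earlier results of these data known. Genes named with values in every library were 7 always shown (Ctsb, Ctsd, Ctsl, Lamp1, Lamp2, Mcoln1, Tfeb), the 4 largest called increases and decreases between days in each kind of dam, and the 3 smallest p-values of each LPS comparison; in the other lists they were those with the largest called changes in saline dams.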

Additional observations from a re-analysis of the deposited data

Results flagged for a closer look

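Of 132 groups of 5 libraries examined, 14 held a library set apart from its group, with a gap to the nearest other library above 0.71 of the group's range. Chance flags about 1 in 20 groups. Of the 14, 10 were saline P11 library 2, whose normalised counts lay below the other 4 saline P11 libraries. They were 2458.7 for Ctsa, 36386.4 for Ctsd, 4657.2 for Ctsl, 614.3 for Lgmn, 1236.1 for Tpp1, 903.8 for Fuca1, 4114.1 for Lamp1, 2032.5 for Lamp2, 1097.3 for Scarb2 and 1281.6 for Grn. This library also had a neutrophil marker sum of 181.6, where the other saline P11 libraries had 10720 or more. The other 4 were single values. Ctsh was at 3805.8 in LPS P11 library 1, Neu1 at 492.6 in LPS P10 library 4 and Asah1 at 2218.0 in saline P11 library 5, and the cathepsin mean minus the membrane protein mean was 2.23 in saline P10 library 2.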

How the results depend on the processing

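Over the alternatives, 1501 values kept their direction and side of the threshold, 83 lost a call, 18 gained one and 19 changed sign. As a share of all counts, 30 of the 31 differences between days were positive in either kind of dam, against 19 in saline and 18 in LPS dams on the authors' scale. Among the genes followed under every alternative, this turned them positive in saline dams for Ctsc (0.13), Ctsh (0.22), Glb1 (0.14), Asah1 (0.92), Lipa (0.23) and Tfeb (0.36). In LPS dams they did so for Ctsc (0.48), Ctsh (0.50), Glb1 (0.38), Gaa (1.17), Manba (1.03), Man2b1 (1.04), Lipa (0.31), Psap (1.16) and Tfeb (0.88), and the change of the LPS effect for Man2b1 (0.04) and Ctsz (0.10). On this scale the median over all genes was 0.69 between days in saline dams and 1.06 in LPS dams, and -0.14 for LPS at P10. Median centring turned Mcoln1 to -0.07 and -0.19. Quantile normalisation moved cathepsins minus glycosidases between days to 0.69 in saline and 0.78 in LPS dams, and cathepsins minus membrane proteins in LPS dams to -0.58; the cause was not tested. Leaving out each library in turn gave 14 to 22 calls in saline and 17 to 23 in LPS dams, and 0 in each LPS comparison. Cathepsins minus glycosidases ran from 0.41 to 0.56 and from 0.42 to 0.50 between days, and with LPS from -0.15 to -0.07 at P10 and -0.21 to -0.06 at P11. Cathepsins minus membrane proteins ran from -0.74 to -0.47 and from -0.86 to -0.78, and with LPS from 0.07 to 0.19 and -0.24 to 0.03. Depth was ample for all members, and 5 libraries per group limit the precision. No paired analysis was possible because the value columns carry no dam number.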
